A study of Rattus norvegicus with 22 samples.

Results

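The comparison of WIN with control asks what a cannabinoid given in adolescence, with no cocaine, does to the RNA of the rat prefrontal cortex. It rests on 3 RNA libraries of WIN and 3 of control, chosen by the column names of the deposited table, out of 12 RNA libraries of this tissue and 22 samples in the series. The rats were male and of the Sprague-Dawley strain in both groups. The WIN libraries came from rats that received WIN, a synthetic agonist of cannabinoid receptors, and the control libraries from rats labelled control. The labels give no dose, age or time for WIN, and do not say what the controls received. The other 6 prefrontal cortex libraries, 3 labelled WIN+cocaine and 3 labelled cocaine, enter the estimate of the spread and serve as a frame for single libraries.

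Cannabinoid agonists of this kind act on CB1, a G protein-coupled receptor that sits mainly on presynaptic terminals in the cortex and dampens the release of glutamate and GABA. Endocannabinoids made by the postsynaptic neuron use the same receptor to tune its inputs. The prefrontal cortex, which serves planning and the control of impulses, matures through adolescence, and its endocannabinoid signalling changes over the same period.

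The values are FPKM, the reads of a gene divided by its length and by the total of the library. Of 29663 genes listed, 15326 reached 1 FPKM in 3 or more of the 12 libraries and were tested, 14048 of them under Ensembl rat gene IDs. The table pairs no ID with a gene name and none matched the reference at hand, so genes are given by ID, with no role. For the same reason the RNA could not be checked against the markers of cortex or of any cell type. Whole read counts could be recovered from the FPKM values, and gave 27677077, 26684286 and 24754334 reads for WIN replicates 1, 2 and 3, against 23524457, 20852442 and 25911627 for control replicates 1, 2 and 3. The typical gene tested was covered by 488 reads in a library, as a median. Genes reaching 1 FPKM numbered 14591, 14776 and 14693 in the WIN libraries and 14625, 14728 and 14646 in the control libraries, with the groups overlapping.

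WIN replicate 3 stood apart from the other WIN libraries, and its profile correlated better with most libraries labelled with cocaine than with its own group. Nothing in the files settles whether the label is right, so each WIN value that includes it rests on that label, and the counts of WIN against control are given with and without it. It was singled out with earlier results of these data known, so its values are a description and carry no test. Over the 15326 genes, the median absolute difference on the log2(FPKM + 1) scale was 0.199 between WIN replicates 3 and 1 and 0.200 between WIN replicates 3 and 2. Between WIN replicates 1 and 2 it was 0.106, and between pairs of controls it ran from 0.103 to 0.127. WIN replicate 3 thus lay farther from each of the other WIN libraries than any control lay from another control. Set against the mean of the other 2 libraries of its group, WIN replicate 3 differed by a median of 0.192, whereas the other 11 libraries of the tissue differed from their own groups by 0.087 to 0.142.

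**Figure D1:**
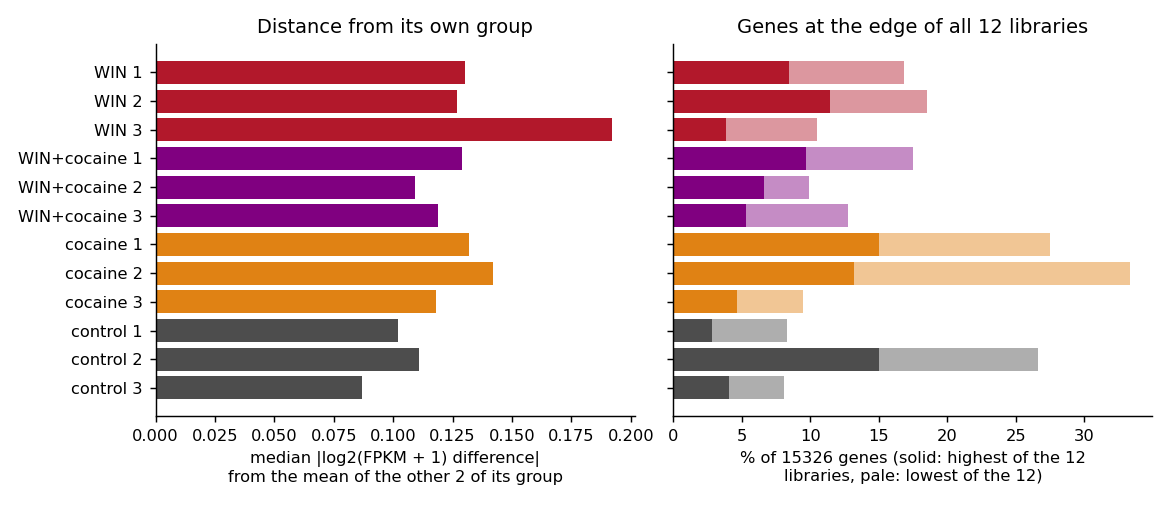
Left, the median over 15326 genes of the absolute difference in log2(FPKM + 1) between each library and the mean of the other 2 libraries of its group. Right, the percentage of those genes in which a library was the highest (solid) or the lowest (pale) of all 12. WIN replicate 3 has the longest bar on the left, at 0.192, but one of the shorter bars on the right, at 10.4%.

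Its distance did not take the form of extreme values. WIN replicate 3 held the highest value of the 12 libraries in 588 genes and the lowest in 1013, together 10.4% of the genes tested. WIN replicate 1 held an extreme value in 16.8% and WIN replicate 2 in 18.5%, and the 12 libraries ran from 8.09% in control replicate 3 to 33.3% in cocaine replicate 2. The library far from its own group was thus mostly inside the range spanned by the other 11. It was not shallow either, with a depth between those of the other WIN libraries and the shallowest control. At least 1.5-fold on the log2(FPKM + 1) scale, WIN replicate 3 was higher than the mean of WIN replicates 1 and 2 in 350 genes and lower in 309. Against their own groups these counts were 647 and 182 in cocaine replicate 1, 262 and 377 in cocaine replicate 2, and 442 and 206 in WIN+cocaine replicate 2. The SD of the differences over all genes was 0.311 in WIN replicate 3 and 0.33 in cocaine replicate 1. WIN replicate 3 was thus the farthest from its group by the median, not by every measure. The median difference of WIN replicate 3 was -0.043, and -0.003 after the libraries were rescaled by the median of ratios. Its lean to lower values thus followed the scaling while its distance, at 0.187 after rescaling, did not.

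Pearson's r of log2(FPKM + 1) across the genes placed WIN replicate 3 nearest to single libraries of another treatment. Its mean r was 0.9835 with the other WIN libraries, 0.9875 with WIN+cocaine, 0.9868 with cocaine and 0.9859 with control. Cocaine replicate 1 had a lower mean r with its own group, 0.9811. The highest single r of WIN replicate 3 was with cocaine replicate 3, at 0.9898, followed by cocaine replicate 2, at 0.9887. Its lowest was with cocaine replicate 1, at 0.982, below every WIN and control library, so it did not lie near all cocaine libraries. The better of the WIN libraries ranked 8th among the 11 neighbours of WIN replicate 3, a rank that WIN+cocaine replicate 2 gave to its own group too. A library of another treatment was the nearest in 11 of the 12 libraries, the exception being WIN replicate 2. WIN replicates 1 and 2 had the opposite order, with mean r of 0.9904 and 0.9885 with control and 0.977 and 0.9794 with cocaine. Seen from the other side, each of the 3 cocaine libraries had WIN replicate 3 as its nearest library, and each of the 3 control libraries had WIN replicate 1. The margins were narrow: the nearest and the second nearest library of cocaine replicates 1, 2 and 3 had r of 0.982 and 0.9815, 0.9887 and 0.9871, and 0.9898 and 0.9896. Genes are not independent replicates, and all libraries share most of their expression, so the order of these r is the measurement, not their height.

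**Figure D2:**
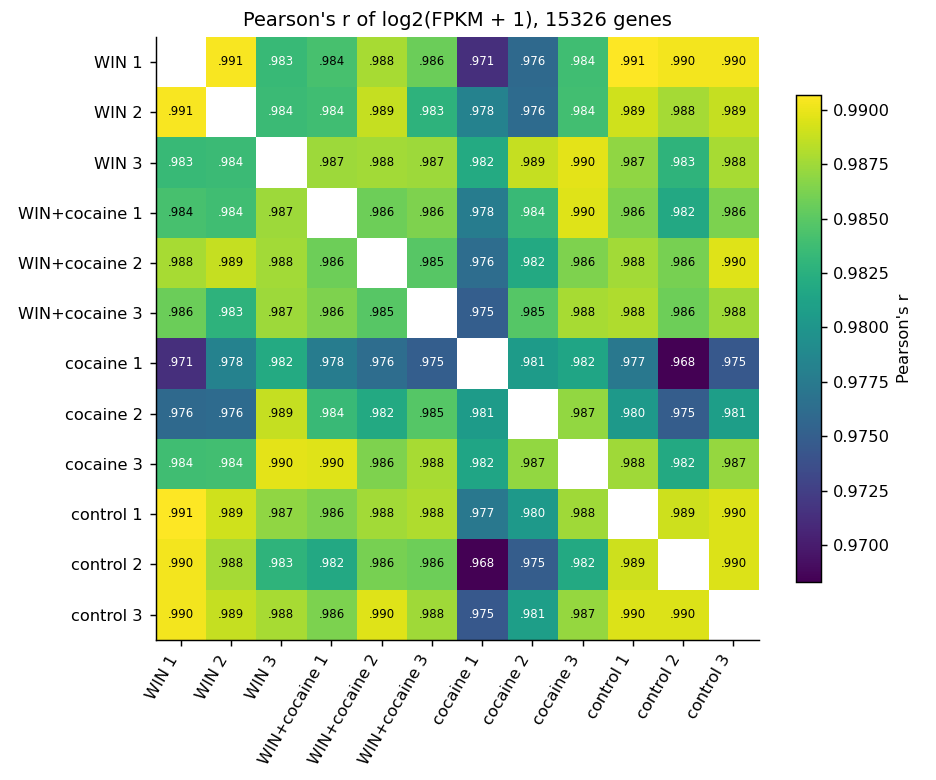
Pearson's r of log2(FPKM + 1) over 15326 genes for every pair of the 12 prefrontal cortex libraries, with the colour scale starting near the lowest value. In the WIN replicate 3 row the brightest cell is cocaine replicate 3, whereas WIN replicate 1 is brightest with WIN replicate 2 and the controls, and WIN replicate 2 with WIN replicate 1, the controls and WIN+cocaine replicate 2.

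In the genes with cocaine and control values that did not overlap, WIN replicate 3 departed from the rest of its group mostly in the direction of cocaine, and these differences share no library. In 2838 genes, 18.5% of those tested, all 3 cocaine values lay above all 3 control values, and in 3294 genes, 21.5%, all lay below. WIN replicate 3 lay above the mean of WIN replicates 1 and 2 in 2415 of the genes higher in cocaine, or 85.1%, beside 43.8% of all genes tested. It lay below that mean in 3009 of the genes lower in cocaine, or 91.3%, beside 56.1% of all genes. The median differences of WIN replicate 3 were 0.21 in the first set and -0.26 in the second. Across all genes tested, its difference from the other WIN libraries had a Pearson's r of 0.48 and a Spearman's rho of 0.59 with the difference of cocaine from control, with a slope of 0.53.

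A WIN+cocaine library, set against the mean of the other 2 of its group in the same way, gave r of 0.19, -0.15 and -0.04 for replicates 1, 2 and 3. WIN+cocaine replicate 1 lay above its group in 77.9% of the genes higher in cocaine and below it in 67.1% of those lower, the nearest to WIN replicate 3 among these libraries. WIN replicates 1 and 2 gave r of -0.46 and -0.14, but the mean that each was set against holds WIN replicate 3, so their sign follows in part from that library. The labels call WIN replicate 3 a library of WIN without cocaine, and it was kept in that group. The cause of its position was not tested, and an error of labelling was not tested either.

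**Figure D3:**
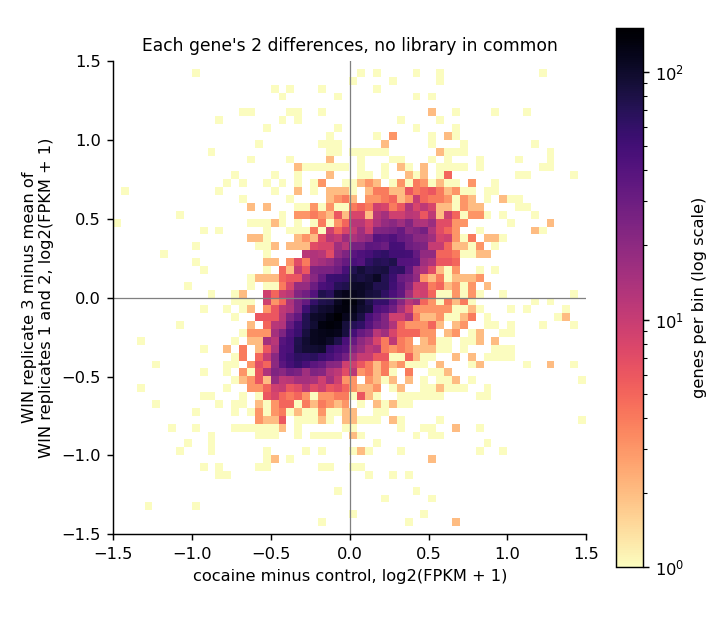
Each gene's difference of WIN replicate 3 from the mean of WIN replicates 1 and 2 (vertical) against its difference of cocaine from control (horizontal), both in log2(FPKM + 1), with colour giving the number of genes per bin on a log scale. The axes stop at 1.5 either way. The cloud of 15326 genes slopes upward, with Pearson's r of 0.48 and no library shared by the axes.

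The difference of WIN from control as groups was small in nearly all genes. The test was limma, a linear model with a spread moderated across genes, on log2(FPKM + 1), with Benjamini-Hochberg adjustment over all 15326 genes. At an adjusted p under 0.05 it called 0 genes, or 0.0%, and no gene came below 0.642. Limma voom on the recovered reads also called 0. Limma gave an unadjusted p under 0.05 to 238 genes, 1.55% of those tested, with 112 higher and 126 lower in WIN, and limma voom gave one to 210, with 87 higher and 123 lower. A share of 5% of the genes tested would be 766, and both counts are below that number. With weights for the libraries, limma gave 889, above that number, and limma voom gave 705, below it. Among the left-out libraries, the 238 became 148 without control replicate 2, where limma also called 1 gene, 409 without WIN replicate 3 and 478 without WIN replicate 1. In bulk tissue, fewer cells of a type and less RNA per cell cannot be told apart, which holds for every difference given here.

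The sizes say what the libraries could and could not show. The median log2 difference of WIN minus control was -0.002, and the interquartile range ran from -0.07 to 0.07. The first and 99th percentiles were -0.40 and 0.44. A gene's 95% interval reached a median of 0.25 to each side of its log2 difference, and in 13495 genes, 88.1%, the whole interval lay within a 1.5-fold change either way. These are intervals of single genes, not adjusted for their number. For most genes tested, a change of 1.5-fold or more between these groups is therefore outside the interval, while smaller ones may lie inside it, and in genes of low FPKM the scale itself shrinks the change. On this scale WIN exceeded control by 1.5-fold or more in 73 genes and fell short of it by as much in 78, and by 2-fold or more in 10 and 19. Groups that did not overlap were found in 60 of the 151 genes past 1.5-fold. Without WIN replicate 3, the 1.5-fold counts were 122 higher and 90 lower, of which 118 did not overlap, and 84.5% of the intervals lay within 1.5-fold.

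By the median SD, the spread was wider in WIN than in the other treatments, and this rested on replicate 3. The median SD of log2(FPKM + 1) within a group was 0.146 in WIN, 0.118 in WIN+cocaine, 0.129 in cocaine and 0.10 in control. By r the order differed: the mean r of a library with its own group ran from 0.9811 to 0.9843 in cocaine and from 0.9835 to 0.9871 in WIN. WIN replicates 1 and 2 differed from each other by a median absolute difference of 0.106, within the 0.103 to 0.127 of pairs of controls. All 3 WIN values lay above or below all 3 control values in 909 genes, 5.93%, of which 488 were higher, 3.18%, and 421 lower, 2.75%. A single library leaves the range of the controls more easily, and the WIN libraries did not do so in 1 common direction. WIN replicate 3 lay above all 3 controls in 4547 genes and below all 3 in 5750, WIN replicate 1 in 3700 and 3279, and WIN replicate 2 in 4876 and 3431. These counts share the same controls, are given only side by side, and do not show whether the libraries agree gene by gene. WIN replicates 1 and 2 both lay above all controls in 2035 genes, and in 51.1% of these WIN replicate 3 lay below all controls. Both lay below in 1398, and in 45.7% of these it lay above all controls. Over all genes its shares were 37.5% and 29.7%. Set apart in the same way, WIN replicate 1 gave 21.9% and 21.0%, beside 21.4% and 24.1%. WIN replicate 2 gave 12.9% and 25.2%, beside 22.4% and 31.8%. The lean in each library's own counts followed the scaling. After rescaling by the median of ratios they were 5164 above and 5130 below in WIN replicate 3. They were 3604 and 3381 in WIN replicate 1, and 3983 and 4214 in WIN replicate 2. The shares taken gene by gene were not computed after rescaling.

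Without WIN replicate 3 the picture changed in number but not in the calls. WIN replicates 1 and 2 both lay above all controls in 2035 genes and both below in 1398, together 22.4% of the genes, though a pair of libraries separates more easily than 3. The same share was 18.2% without WIN replicate 1 and 11.9% without WIN replicate 2. It cannot fall when a library is left out, so its rise in each case says nothing by itself. Limma again called 0 genes, the lowest adjusted p being 0.667, and left 409 under an unadjusted p of 0.05, 233 of them higher and 176 lower. Of these 409, 134 were among the 238 found with all libraries, or 32.8% of the larger and 56.3% of the smaller set. Leaving out WIN replicate 1 in its place gave 478 genes, of which 141 were shared with the 238, and leaving out WIN replicate 2 gave 240, of which 120 were shared. The genes at this p therefore changed with every WIN library left out, not with WIN replicate 3 alone.

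Short genes held most of the large differences. Of the 151 genes at least 1.5-fold apart between WIN and control, 120 lay in the shortest of 4 length classes of nearly equal number, of 1194 bp or less by the length that the recovered reads imply. The other classes, from shorter to longer genes, held 20, 7 and 4. The share at an unadjusted p under 0.05 ran the same way, with 3.29%, 1.57%, 0.836% and 0.522% from the shortest to the longest class, beside 1.55% of all genes. Under 200 bp the reads were too few to carry much: 359 such genes had 5 reads in the median library, and 53 of them, 14.8%, were at least 1.5-fold apart, beside 0.985% of all genes. In these genes every library strayed from its group: WIN replicate 3 was at least 1.5-fold from the other WIN libraries in 37.3% of them, and the other 11 libraries ran from 30.4% to 39.3%. Without WIN replicate 3, the 4 length classes held 155, 28, 22 and 7 genes past 1.5-fold, with 5.58%, 2.40%, 1.52% and 1.17% at an unadjusted p under 0.05.

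The small differences also had a slope with gene length. In 8 bins of length, the median difference of WIN replicate 1 from the mean of the controls was 0.038 in the shortest bin and -0.033 in the longest, and that of WIN replicate 2 was 0.079 and -0.028. WIN replicate 3 was nearly flat, at -0.029 and -0.042. Single controls, each set against the mean of the other controls, also moved with length, in opposite directions: control replicate 1 had 0.014 in the shortest and -0.082 in the longest bin, and control replicate 2 had 0.004 and 0.072. A lean with length was thus present between control libraries as well. The groups as wholes had median differences of 0.027, 0.010, -0.007 and -0.024 from the shortest to the longest of the 4 classes, and without WIN replicate 3 they had 0.052, 0.031, 0.004 and -0.020. The part that length has in the WIN differences was not tested.

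**Figure D4:**
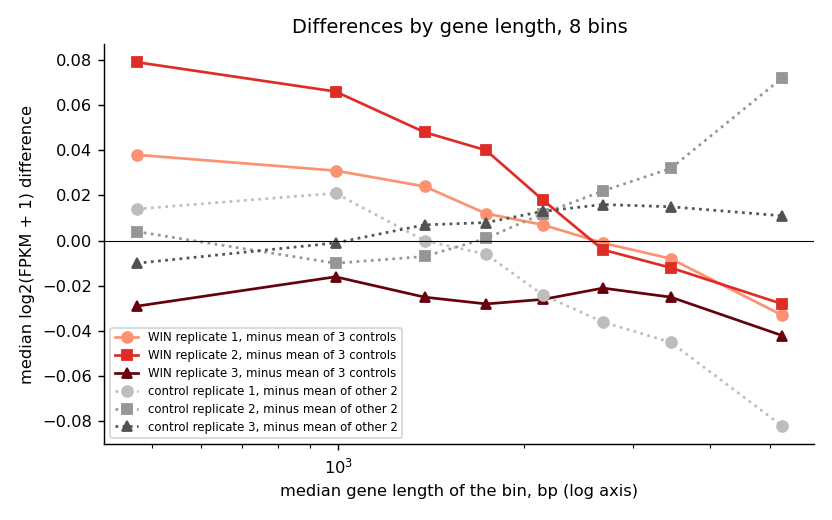
Median difference in log2(FPKM + 1) in 8 bins of gene length, placed at the bin's median length on a log axis. Solid lines are WIN libraries minus the mean of the 3 controls, and dotted lines are single controls minus the mean of the other 2. WIN replicates 1 and 2 fall with length, WIN replicate 3 stays below 0 in all bins, and the lines of control replicates 1 and 2 diverge in long genes.

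Genes listed under other IDs than Ensembl, 1278 of those tested, were close to the rest in the share at a low p with all libraries, not in every measure. Of these, 22 had an unadjusted p under 0.05, or 1.72%, beside 1.54% of the Ensembl genes. These shares were 1.88% and 2.74% without WIN replicate 3. WIN replicate 3 was the highest of the 12 libraries in 5.71% of the other IDs against 3.67% of the Ensembl genes, and the lowest in 5.87% against 6.68%. It was at least 1.5-fold below the other WIN libraries in 3.76% against 1.86%, and as far above them in 2.03% against 2.31%. Lower thus outnumbered higher in the other IDs, and the reverse held in the Ensembl genes. The other IDs also had fewer reads, at a median of 121 in a library against 550.

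Single genes are shown by the pair of Ensembl IDs with the lowest p among those higher in WIN, and the pair among those lower, where the mean over the 6 libraries was 1 FPKM or more. They were chosen for this comparison, so their separation follows largely from the choice, and none passed the adjusted threshold. ENSRNOG00000047565, of 1442 bp, had an FPKM of 4.58, 8.42 and 8.10 in WIN against 1.24, 1.66 and 1.23 in control. The groups did not overlap, and the lowest WIN library was replicate 1, not replicate 3. The means were 7.03 ± 2.13 in WIN and 1.38 ± 0.247 in control (SD, n = 3 each), differing by 1.72 ± 0.29 (SE) on the log2(FPKM + 1) scale, with a limma adjusted p of 0.644. At these low values the pseudocount holds the difference down, and limma voom gave 2.31. With cocaine the gene was low in every library, at 1.13, 2.63 and 0.590 in WIN+cocaine and 2.31, 1.01 and 1.40 in cocaine, and the high values were found in WIN without cocaine only among these 12 libraries.

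ENSRNOG00000013766, of 1613 bp, had 13.2, 15.4 and 12.2 FPKM in WIN against 6.75, 7.11 and 7.01 in control. The controls lay within a narrow band and each WIN library lay well above it. The means were 13.6 ± 1.65 in WIN and 6.95 ± 0.186 in control (SD, n = 3 each), differing by 0.87 ± 0.16 (SE) on the log2(FPKM + 1) scale, with a limma adjusted p of 0.684. WIN+cocaine, at 13.7, 9.59 and 9.04, and cocaine, at 11.1, 12.2 and 8.10, also lay above all controls. In this gene the 3 controls were thus below the other 9 libraries, and the difference of WIN+cocaine minus cocaine was 0.03 ± 0.16 (SE).

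ENSRNOG00000046990, of 1611 bp, was low in WIN and variable elsewhere. It had 1.08, 0.744 and 0.853 FPKM in WIN against 3.01, 7.29 and 5.20 in control, and its p was the smallest of all genes tested. The groups did not overlap, and the controls spanned more than the distance from the lowest control to the WIN libraries. The means were 0.891 ± 0.169 in WIN and 5.17 ± 2.14 in control (SD, n = 3 each), differing by -1.65 ± 0.26 (SE) on the log2(FPKM + 1) scale, with a limma adjusted p of 0.642. WIN+cocaine had 1.86, 2.02 and 1.42 and cocaine had 3.99, 2.34 and 1.66, so every other library lay above the 3 WIN libraries. Limma voom gave -2.43 for WIN minus control.

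ENSRNOG00000045785, of 1081 bp, had 2.81, 3.99 and 2.91 FPKM in WIN against 8.65, 5.86 and 5.50 in control. The means were 3.24 ± 0.652 in WIN and 6.67 ± 1.73 in control (SD, n = 3 each), differing by -0.84 ± 0.18 (SE) on the log2(FPKM + 1) scale, with a limma adjusted p of 0.999. WIN was again below every other library, since WIN+cocaine had 6.76, 7.57 and 4.69 and cocaine had 5.11, 4.86 and 5.58. A low p asks for WIN values that agree, so the place of WIN replicate 3 beside the other WIN libraries in these 4 genes follows from the choice. Without it, the log2 differences were 1.61 for ENSRNOG00000047565, 0.94 for ENSRNOG00000013766, -1.63 for ENSRNOG00000046990 and -0.79 for ENSRNOG00000045785.

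The genes in which WIN replicate 3 departed most, counting only those averaging 1 FPKM or more where it lay outside the range of the other 11 libraries, were chosen for that departure. ENSRNOG00000037673, of 464 bp, had 16.1 FPKM in WIN replicate 3 against 2.26 and 2.34 in WIN replicates 1 and 2. It ran from 6.24 to 10.3 in WIN+cocaine, from 1.75 to 8.47 in cocaine and from 2.07 to 12.9 in control. ENSRNOG00000047000, of 481 bp, had 11.3 against 1.95 and 1.09, with values up to 10.8 in WIN+cocaine, 5.21 in cocaine and 1.77 in control. Both genes were thus variable in more than 1 group, though the controls were close together in the second, and there WIN replicate 3 only narrowly exceeded the next library.

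ENSRNOG00000048985, of 849 bp, had 1.47 FPKM in WIN replicate 3 against 13.7 and 21.7 in WIN replicates 1 and 2. Control replicate 3 was also low, at 3.64, beside 20.7 and 14.2 in control replicates 1 and 2, while cocaine stood at 18.2, 31.5 and 19.4. ENSRNOG00000043144, of 183 bp, had 24.3 against 133 and 158, with 51.2 and 49.8 in cocaine replicates 1 and 2 and 35.9 in control replicate 2. WIN replicate 3 was the lowest library in both genes, and each gene also had low values in at least 1 control library. Between WIN and control as groups, the 4 genes had a limma adjusted p of 0.999 each.

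**Figure D5:**
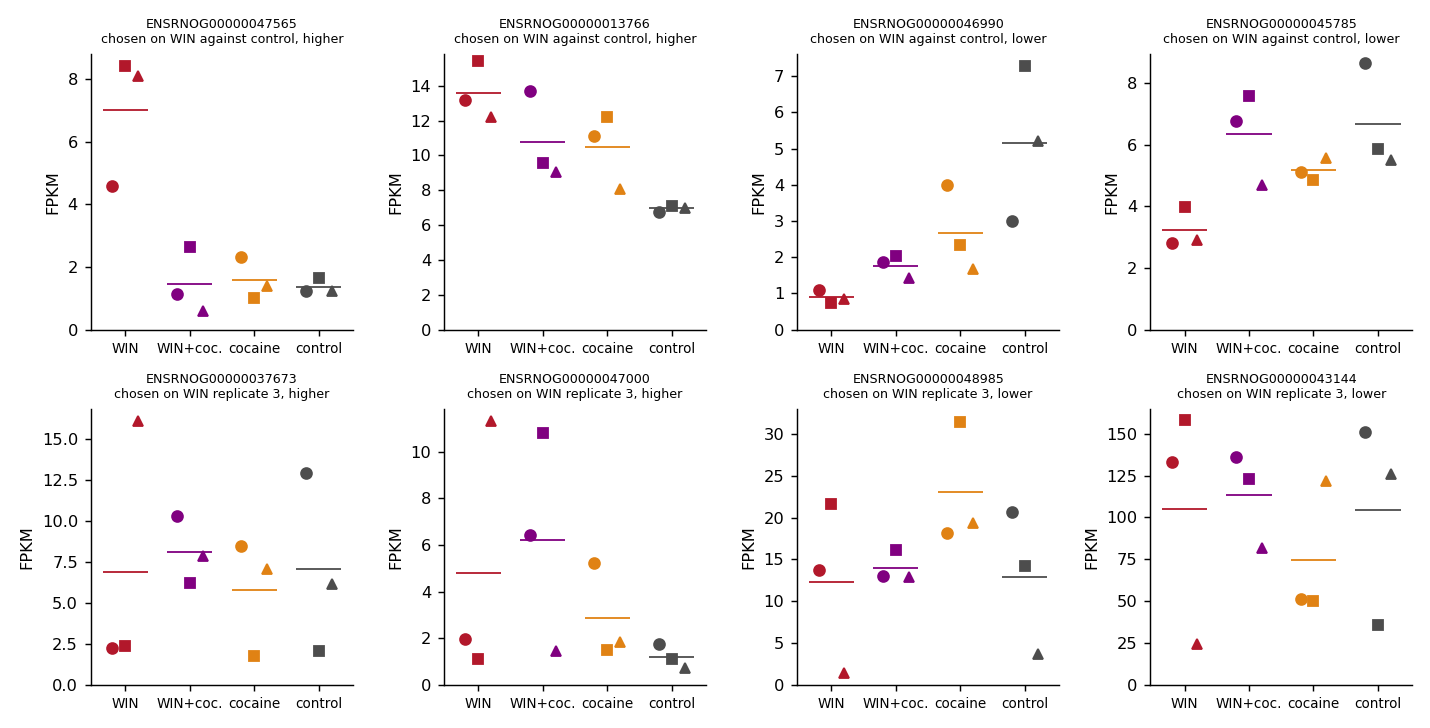
FPKM in all 12 libraries for 8 Ensembl IDs, with circles, squares and triangles for replicates 1, 2 and 3 and a line at each group's mean. In the top row, chosen on WIN against control, the WIN values lie beyond all control values. In the bottom row, chosen on WIN replicate 3, the triangle of WIN stands apart from the other WIN values, and some of the other groups spread widely while others are tight.

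The difference that goes with WIN was also set beside the same difference under cocaine, WIN+cocaine minus cocaine, which uses none of the same libraries. The signs were the same in 5521 genes, 36.0% of those tested. Without WIN replicate 3 they were the same in 8405, or 54.8%, whereas without WIN replicate 1 or 2 they were the same in 30.0% and 31.4%. The mostly opposite signs thus rested on WIN replicate 3. Over all genes tested, the sizes of these differences had a Pearson's r of 0.005 without that library, against -0.223 with it. Among the 238 genes at an unadjusted p under 0.05, 102 kept their sign under cocaine, or 42.9%, and among the 409 found without WIN replicate 3, 264 did, or 64.5%.

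The genes whose groups did not overlap told the same. Of the 488 with WIN above control, 153 were also higher in WIN+cocaine than in cocaine, or 31.4%, beside 54.5% of all genes tested. Of the 421 with WIN below control, 139 were also lower, or 33.0%, beside 45.5% of all genes. Without WIN replicate 3, 1308 of the 2035 higher genes were higher under cocaine, or 64.3%, and 835 of the 1398 lower genes were lower, or 59.7%. Under cocaine, 1735 of the genes tested, 11.3%, had all WIN+cocaine values above all cocaine values, and 1027, 6.70%, had all below. Of the 488 genes higher in WIN than in control, 19 were also higher under cocaine without overlap, 3.89% of the 488 and 1.10% of the 1735, and 35 were lower, 7.17% of the 488 and 3.41% of the 1027. Of the 421 lower in WIN, 11 were also lower under cocaine, 2.61% of the 421 and 1.07% of the 1027, and 33 were higher, 7.84% of the 421 and 1.90% of the 1735. The shares in the same direction lay below the 11.3% and 6.70% of all genes, one opposite share lay near its background and the other below it.

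This turned round when WIN replicate 3 was left out. Of the 2035 higher genes, 284 were also higher under cocaine without overlap, 14.0% of them and 16.4% of the 1735, and 57 were lower, 2.80% of them and 5.55% of the 1027. Of the 1398 lower genes, 122 were also lower, 8.73% of them and 11.9% of the 1027, and 51 were higher, 3.65% of them and 2.94% of the 1735. The overlap of the WIN differences with and without cocaine thus depended on WIN replicate 3.

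For the 4 genes chosen on WIN against control, the differences under cocaine were smaller in value. WIN+cocaine minus cocaine was -0.13 ± 0.29 for ENSRNOG00000047565, 0.03 ± 0.16 for ENSRNOG00000013766, -0.36 ± 0.26 for ENSRNOG00000046990 and 0.23 ± 0.18 for ENSRNOG00000045785 on the log2(FPKM + 1) scale (SE). The test of the difference between the differences, the interaction, gave -1.85, -0.84, 1.28 and 1.07 in the same order, each with a limma adjusted p of 0.539. No gene of the 4 thus passed the test of an unequal WIN difference with and without cocaine, and the choice of the genes favours a large interaction.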

How the data were processed

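The 12 prefrontal cortex libraries came to GEO as 1 table of FPKM values made by the authors. Total RNA, 1 µg, went into a strand-specific kit, per the labels' protocols. The tools were HISAT2, HTSeq and DESeq, without versions, per the submitters' processing notes. Genome build, annotation and strand setting were, for these files, not given in the sources used here. Overlapping or antisense genes and close paralogs may therefore share reads. Sample titles gave the groups and replicate numbers. No label says that replicates are separate animals. Each p-value therefore sets a group difference only against the spread among these 12 libraries, and that spread may be technical.

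Each gene's FPKM values were whole multiples of a step set by the library, which gave back the reads: 100% of values came out whole within a relative 1e-06, at 20852442 to 27677077 reads per library. No pair of the 6 compared libraries agreed within sampling noise (chi-square per degree of freedom 8.49 to 37.85). The filter kept genes that reached 1 FPKM in 3 or more of the 12 libraries. Limma 3.58.1, run in R 4.3.3, took log2(FPKM + 1) and 4 group means over the 12 libraries, eBayes with a trend, and p-values adjusted by Benjamini-Hochberg; the added 1 understates the change of low genes. The script was tested on simulated data. Limma voom on the recovered reads was added after the data were seen.

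The comparison, lists and tests were chosen with earlier results of these data known. Named genes are the 2 Ensembl IDs per direction with the lowest p, among genes averaging 1 FPKM or more over the compared libraries. For WIN replicate 3 they are the 2 per direction with the largest difference from the mean of WIN replicates 1 and 2, among genes averaging 1 FPKM or more over the 12 libraries where it lay outside the range of the other 11. None of the 29663 IDs matched the reference table (GRCr8, 47357 genes, 0 with an Ensembl ID), so the 26 gene lists fixed by symbol were not analysed here. The ATAC data, for which the notes name BWA and MACS2 2.1.0, and the nucleus accumbens libraries were not used here.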

Additional observations from a re-analysis of the deposited data

How the results depend on the processing

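The count of WIN against control at an adjusted p under 0.05 was 0 in 24 of 25 alternatives and ran from 0 to 1 over the libraries left out. The 1 gene, found without control replicate 2, was ENSRNOG00000046449, named after its values were seen: it had 1.24, 1.12 and 1.04 FPKM in WIN against 11.4, 1.64 and 16.0 in control, with a limma adjusted p of 0.00107 without control replicate 2 and 0.999 with it. With only the 6 compared libraries the smallest adjusted p was 0.0736. For an unadjusted p under 0.05 the number of genes, 238 as reported, became 633 with no filter, where 24197 genes were tested, 889 with library weights, which gave WIN replicate 3 the lowest weight of the 12 libraries, 0.30, and 705 with voom and quality weights. Over the libraries left out it ran from 148 without control replicate 2 to 478 without WIN replicate 1, and it was 409 without WIN replicate 3. Apart from these settings' own construction, the cause was not tested. The share of genes whose groups did not overlap ran from 10.1% to 22.4% over the left-out libraries of the pair compared, since fewer libraries overlap less. The 4 genes chosen on WIN against control kept their direction in all their alternatives, which reuse most of the same libraries and so add no support.

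The distance of WIN replicate 3 was 0.137 with no filter, which adds genes near 0, where WIN replicates 1 and 2 were each at 0.101, and cocaine replicate 3 was its nearest library in all 7 settings tried. The share of genes on the cocaine side, 88.5% over both directions, ran from 81.3% to 89.6%, and the number of cocaine libraries nearest to WIN replicate 3 was 3 except for 2 with an FPKM of 1 or more in all 12 libraries. The same-sign share ran from 30.0% to 54.8% over the libraries left out. The fits with voom, the alternatives of these last shares, and the sizes, classes and overlaps without WIN replicate 3 were chosen after seeing the data.

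With the replicate number as a replicate block, limma called 0 genes and 252 had an unadjusted p under 0.05. Same-numbered WIN and control libraries had deviations that correlated at -0.045, 0.071 and 0.134 for replicates 1, 2 and 3, beside -0.175 to 0.149 for other numbers, so the numbers were not taken to pair the samples. Alternatives of the gene lists were not run, since no list could be matched. Depth limits the shortest genes most: those under 200 bp had a median of 5 reads per library.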
